A study of Mus musculus with 6 samples.

Results

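The collagens outside type IV were compared between WT and IG27 mouse glial cells. Their genes were found by symbol, as *Col* followed by a number, the letter a and a number, leaving out the type IV genes. Of the 22911 genes named on the arrays, 38 met this rule, with 60 probes among them. WT cells are OS3 cells carrying an empty vector (labeled OS3-vector), and IG27 cells are OS3 cells transfected with a plasmid for the histone H3.3 mutant H3.3K27M (labeled OS3-H3F3A_K27M). OS3 is a glial cell line from the brain of male newborn C3H/HeN mice (strain C3H in the labels) that was immortalized with SV40, so both groups carry SV40, and both were grown for 2 days before RNA was taken. Each group had 3 samples, and each sample was read on 1 single-color Agilent array. The methods describe drug selection of clones after transfection and nothing in the labels says that the samples of a group were separate cultures, so the p-values measure only the spread between these samples, which may be technical, and the mutation and the selected clone cannot be told apart.

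Collagens are secreted or membrane-bound proteins whose chains wind into helices of glycine, proline and hydroxyproline repeats. Fibrillar collagens (types I, II, III, V, XI, XXIV and XXVII) build the fibrils of connective tissue, and FACIT collagens (types IX, XII, XIV, XVI, XIX, XX and XXII) sit on the surface of such fibrils or at tissue borders. Type VI forms beaded microfilaments, types VIII and X form sheet-like networks, type VII forms anchoring fibrils, types XIII, XVII, XXIII and XXV span the cell membrane, and types XV and XVIII are multiplexins, basement membrane proteoglycans. In the normal brain fibrillar collagen is largely limited to the meninges and the walls of larger vessels.

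Values were the log2 of the deposited spot intensity minus the 75th percentile of the array, called normalized log2 intensity below, so that 0 is the level of the 75th percentile probe. On the 5 arrays with complete scanner output, 58.8% to 61.2% of probes were well above background, a flag set by the scanner software, and no spot was saturated. The scanner output of IG27 replicate 2 is cut short, so its values came from the deposited value table and it has no flag. Of the glial markers, 5 of 7 astrocyte genes (*Aldh1l1*, *Aqp4*, *Gfap*, *S100b* and *Slc1a2*) and the oligodendrocyte lineage genes *Mbp*, *Olig1*, *Olig2*, *Pdgfra* and *Sox10* were well above background on all WT arrays, while *Gja1* was on no array. The gene of the expressed histone gave no check of the labels, since the 3 probes of *H3f3a* differed by -0.26 to 0.17 (log2, IG27 minus WT) and whether they read the plasmid RNA is not given in the sources used here.

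The promoters of 5 members with clear differences are shown first, since the members below moved in opposite directions within a class. RefSeq promoter windows (GRCm38.p6, 250 bases before to 50 after the annotated start) were at hand for 30 of the 38 members, in 33 windows. There was no window for *Col1a1*, *Col2a1*, *Col5a2*, *Col9a3*, *Col12a1*, *Col14a1*, *Col22a1* and *Col26a1*. Capitals mark matches on either strand to the TATA box TATAAA, the CCAAT box CCAAT, the GC box GGGCGG and the AP-1 site TGANTCA. The first 3 sequences belong to genes that were higher in IG27 cells and the last 2 to genes that were lower.
Col8a1, chr16:57754688-57754987, minus strand: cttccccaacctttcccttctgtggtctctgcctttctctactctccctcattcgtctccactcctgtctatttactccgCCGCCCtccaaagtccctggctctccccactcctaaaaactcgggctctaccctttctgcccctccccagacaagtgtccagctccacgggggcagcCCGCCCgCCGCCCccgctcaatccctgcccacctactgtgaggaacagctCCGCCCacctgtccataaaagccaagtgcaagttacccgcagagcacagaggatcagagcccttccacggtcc
Col6a3, chr1:90843922-90844221, minus strand: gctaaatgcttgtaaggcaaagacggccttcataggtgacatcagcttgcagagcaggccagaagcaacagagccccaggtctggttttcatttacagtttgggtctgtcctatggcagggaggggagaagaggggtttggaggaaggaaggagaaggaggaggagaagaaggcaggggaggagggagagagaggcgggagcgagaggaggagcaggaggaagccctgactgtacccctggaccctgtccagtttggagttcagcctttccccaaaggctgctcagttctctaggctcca
Col3a1, chr1:45311288-45311587, plus strand: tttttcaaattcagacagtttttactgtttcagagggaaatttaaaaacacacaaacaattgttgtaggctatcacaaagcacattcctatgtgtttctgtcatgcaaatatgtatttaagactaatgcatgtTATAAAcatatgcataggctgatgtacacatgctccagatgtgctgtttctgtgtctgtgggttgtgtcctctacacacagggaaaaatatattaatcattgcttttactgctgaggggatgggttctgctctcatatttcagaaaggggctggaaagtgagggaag
Col6a1, chr10:76725995-76726294, minus strand: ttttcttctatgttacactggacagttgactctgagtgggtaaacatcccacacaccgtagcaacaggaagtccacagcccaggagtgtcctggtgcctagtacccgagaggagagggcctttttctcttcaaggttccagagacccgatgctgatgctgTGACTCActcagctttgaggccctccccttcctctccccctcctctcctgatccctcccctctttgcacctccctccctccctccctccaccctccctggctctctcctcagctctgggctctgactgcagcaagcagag
Col5a1, chr2:27886175-27886474, plus strand: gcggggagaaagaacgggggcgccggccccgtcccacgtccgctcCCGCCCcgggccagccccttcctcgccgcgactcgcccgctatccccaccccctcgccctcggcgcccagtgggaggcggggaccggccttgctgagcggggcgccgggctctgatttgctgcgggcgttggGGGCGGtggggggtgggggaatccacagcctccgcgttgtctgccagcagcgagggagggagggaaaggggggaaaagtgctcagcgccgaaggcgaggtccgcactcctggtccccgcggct
*Col8a1* held 4 GC boxes and 12 CpG dinucleotides, and *Col6a3* held no match and 3 CpG. *Col3a1* held 0 CpG and a match to the TATA box letters at position -117 from the annotated start. *Col6a1* held the AP-1 match and 3 CpG, and *Col5a1* held GC boxes on both strands and 34 CpG. Over the 33 windows the median was 10 CpG (all 32851 mouse windows: 7). It was 8 for the 13 windows of genes higher in IG27 cells (range 0 to 24) and 14 for the 8 windows of genes lower (range 3 to 34), ranges that overlap widely. A GC box stood in 57.6% of the collagen windows and 35.7% of all windows, a TATA box in 15.2% and 13.6%, a CCAAT box in 30.3% and 37.4%, and an AP-1 match in 3.03% and 7.81%. These shares describe letters in the windows and not binding.

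To ask which collagens differ between the lines, limma was run over all genes at once, keeping a gene if its probe was flagged well above background throughout the complete arrays of either group. Of the 38 collagens 28 were tested, and 15 of these were called as higher and 7 as lower in IG27 cells, while 6 were not called. A call is an adjusted p under 0.05 from limma, by a two-sided test with Benjamini-Hochberg adjustment over 14898 genes. Over all genes tested 70.5% were called, 30.5% as higher and 40.0% as lower, so most genes of these cells were called in this comparison. A count of 22 called collagens of 28 (78.6%) is therefore near the background. The median log2 difference was 0.71 over the 28 collagens and -0.07 over all genes. The filter bears on that median, since 9 of the 28 collagens passed through IG27 arrays alone and 0 through WT arrays alone. Among the 19 collagens well above background on every complete array, 8 were higher and 7 lower, against 28.6% higher and 41.0% lower of 13538 such genes, and the medians were 0.12 and -0.08. For 23 of the 28 the groups did not overlap, against 75.7% of all genes tested. At least a 2-fold change was called for 14 collagens (11 higher and 3 lower), against 23.1% of all genes, but 7 of the 11 passed the filter through IG27 arrays alone. Among the 19 well above background throughout, 4 higher and 3 lower reached 2-fold, against 18.4% of such genes. The SD between arrays of a group had a median of 0.13 in WT and 0.11 in IG27 cells for the collagens and of 0.08 in both for all genes. In bulk RNA, fewer cells with a transcript and less of it per cell cannot be told apart.

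**Figure D1:**
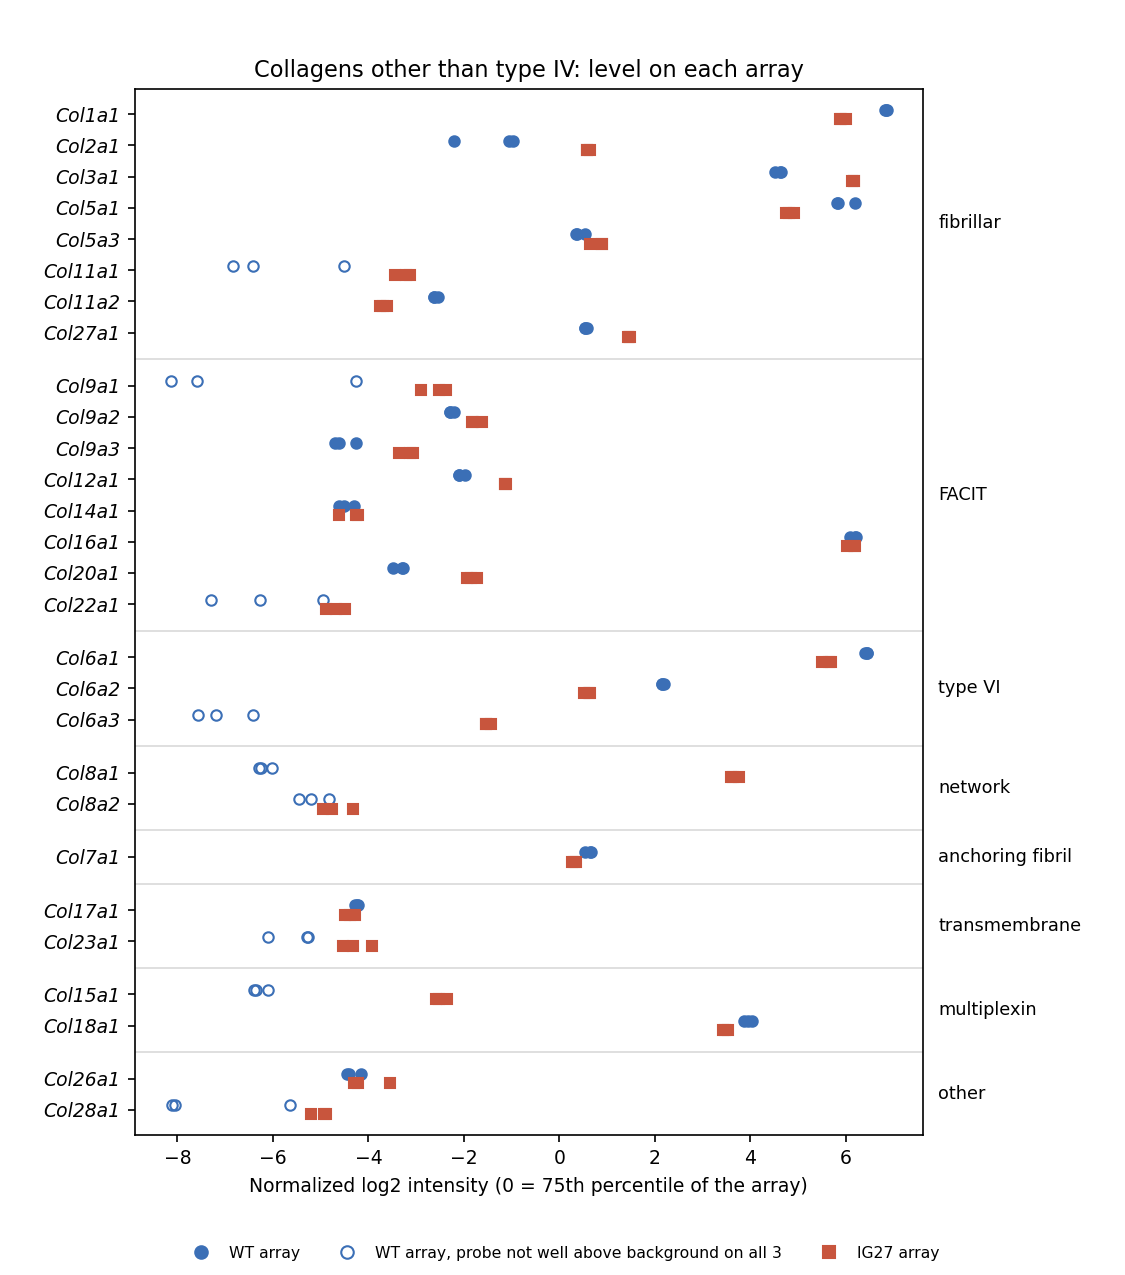
Normalized log2 intensity (x axis) of each tested collagen (y axis, by class) on each array, with WT arrays as blue circles (open where the probe was not well above background on all 3) and IG27 arrays as red squares. *Col8a1* lies between -6.29 and -6.02 in WT and between 3.60 and 3.76 in IG27 cells, while *Col16a1* overlaps near 6.

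Among the fibrillar collagens, type III rose while the main chains of types I and V fell. Of 11 genes 8 were tested, with 5 higher and 3 lower, beside 30.5% higher and 40.0% lower of all genes tested. *Col3a1*, the chain of type III collagen, read 4.51, 4.62 and 4.64 on the 3 WT arrays and 6.13, 6.18 and 6.18 on the 3 IG27 arrays. All IG27 arrays were above all WT arrays, with a fold change of 2.97 (log2 difference 1.57, standard error 0.05, adjusted p = 1.72e-06 from limma). *Col1a1*, which gives the more abundant chain of type I collagen, moved the other way, from 6.84, 6.83 and 6.86 in WT to 5.88, 6.0 and 5.91 in IG27 cells. That is a log2 difference of -0.92 (standard error 0.05, adjusted p = 1.3e-05 from limma), without overlap. Its other tested probe gave -0.33 (adjusted p = 0.0149 over all probes from limma), the same direction with a smaller size. The partner chain *Col1a2* was not tested, since its probe lay between -5.77 and -4.72 and was well above background on 2 WT arrays and 1 IG27 array.

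*Col5a1*, a chain of type V collagen, which joins type I in mixed fibrils, read 6.20, 5.83 and 5.82 in WT and 4.92, 4.81 and 4.76 in IG27 cells. It was 2.17-fold lower (log2 difference -1.12, standard error 0.12, adjusted p = 0.00023 from limma). *Col5a3*, an alternative type V chain, rose slightly, from 0.54, 0.38 and 0.36 to 0.64, 0.89 and 0.90 (log2 difference 0.39, adjusted p = 0.0104 from limma). The remaining chain *Col5a2* was not well above background on any array (-8.22 to -7.57).

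The cartilage-type fibrillar genes split as well. *Col2a1*, the chain of type II collagen of cartilage, read -2.20, -1.05 and -0.97 in WT and 0.59, 0.57 and 0.65 in IG27 cells. WT replicate 1 stood below the other WT arrays, no WT array reached an IG27 array, and the fold change was 4.01 (log2 difference 2.01, standard error 0.33, adjusted p = 0.00177 from limma). *Col11a2*, a type XI chain, fell from -2.62, -2.54 and -2.62 to -3.70, -3.75 and -3.61 (log2 difference -1.10, adjusted p = 1.05e-05 from limma). A dimmer probe of *Col11a2* did not follow, with a difference of 0.04 (adjusted p = 0.861 from limma). *Col11a1*, the other type XI chain, read -6.84, -4.52 and -6.41 in WT, where it was well above background only in replicate 2, and -3.22, -3.12 and -3.44 in IG27 cells. Its log2 difference was 2.66 (standard error 0.59, adjusted p = 0.00686 from limma) and was 3.37 without WT replicate 2. The other *Col11a1* probe was not well above background on any array. *Col27a1*, a fibrillar chain of developing cartilage, was tightly spread in both groups, at 0.53 to 0.59 in WT and 1.44 to 1.49 in IG27 cells, and rose by 0.92 (adjusted p = 8.71e-06 from limma). *Col24a1* was not well above background on any array.

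No tested FACIT collagen was called lower. Of 9 genes 8 were tested, 5 were higher in IG27 cells and 3 were not called, with a median log2 difference of 1.13. Over all genes tested 30.5% were called higher and 40.0% lower. The filter bears on the FACIT median too, since *Col9a1* and *Col22a1* passed through IG27 arrays alone. All 3 chains of type IX collagen, which coats type II fibrils, were higher. *Col9a3* read -4.62, -4.69 and -4.26 in WT and -3.13, -3.36 and -3.07 in IG27 cells (log2 difference 1.34, standard error 0.14, adjusted p = 0.000191 from limma). *Col9a2* changed less, from -2.28, -2.29 and -2.20 to -1.83, -1.80 and -1.62 (0.51, adjusted p = 0.000834 from limma). For *Col9a1* the WT arrays were far apart, at -4.25, -7.60 and -8.14, and only replicate 1 was well above background there. The IG27 arrays read -2.38, -2.52 and -2.89, above each of them. The log2 difference of *Col9a1* was 4.07 (standard error 1.0, adjusted p = 0.0108 from limma), 5.27 without WT replicate 1 and 3.33 without WT replicate 3, so its size is loosely set. The other *Col9a1* probe was not well above background on any array.

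*Col20a1*, a little-studied FACIT chain, read -3.29, -3.27 and -3.49 in WT and -1.86, -1.72 and -1.94 in IG27 cells, a fold change of 2.85 (log2 difference 1.51, standard error 0.09, adjusted p = 1.59e-05 from limma). *Col12a1*, a FACIT of tendon and skin that binds type I fibrils, rose from -2.11, -2.10 and -1.98 to -1.14, -1.12 and -1.13 (0.93, adjusted p = 1.47e-05 from limma). Neither gene's groups overlapped. *Col14a1*, its relative, gave 0.12 (95% interval -0.20 to 0.44, adjusted p = 0.435 from limma) and *Col16a1* gave -0.04 (95% interval -0.21 to 0.13, adjusted p = 0.618 from limma), and both signs turned with the scaling. A dimmer *Col16a1* probe differed by 0.44 (adjusted p = 0.00934 from limma). *Col22a1*, a collagen of tissue junctions, read -6.27, -7.29 and -4.95 in WT, well above background only in replicate 3, and -4.88, -4.48 and -4.68 in IG27 cells. It was not called (1.49, adjusted p = 0.0534 from limma), and without WT replicate 3 the difference was 2.10 with an adjusted p of 0.00268 from limma. *Col19a1* was not well above background on any array.

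**Figure D2:**
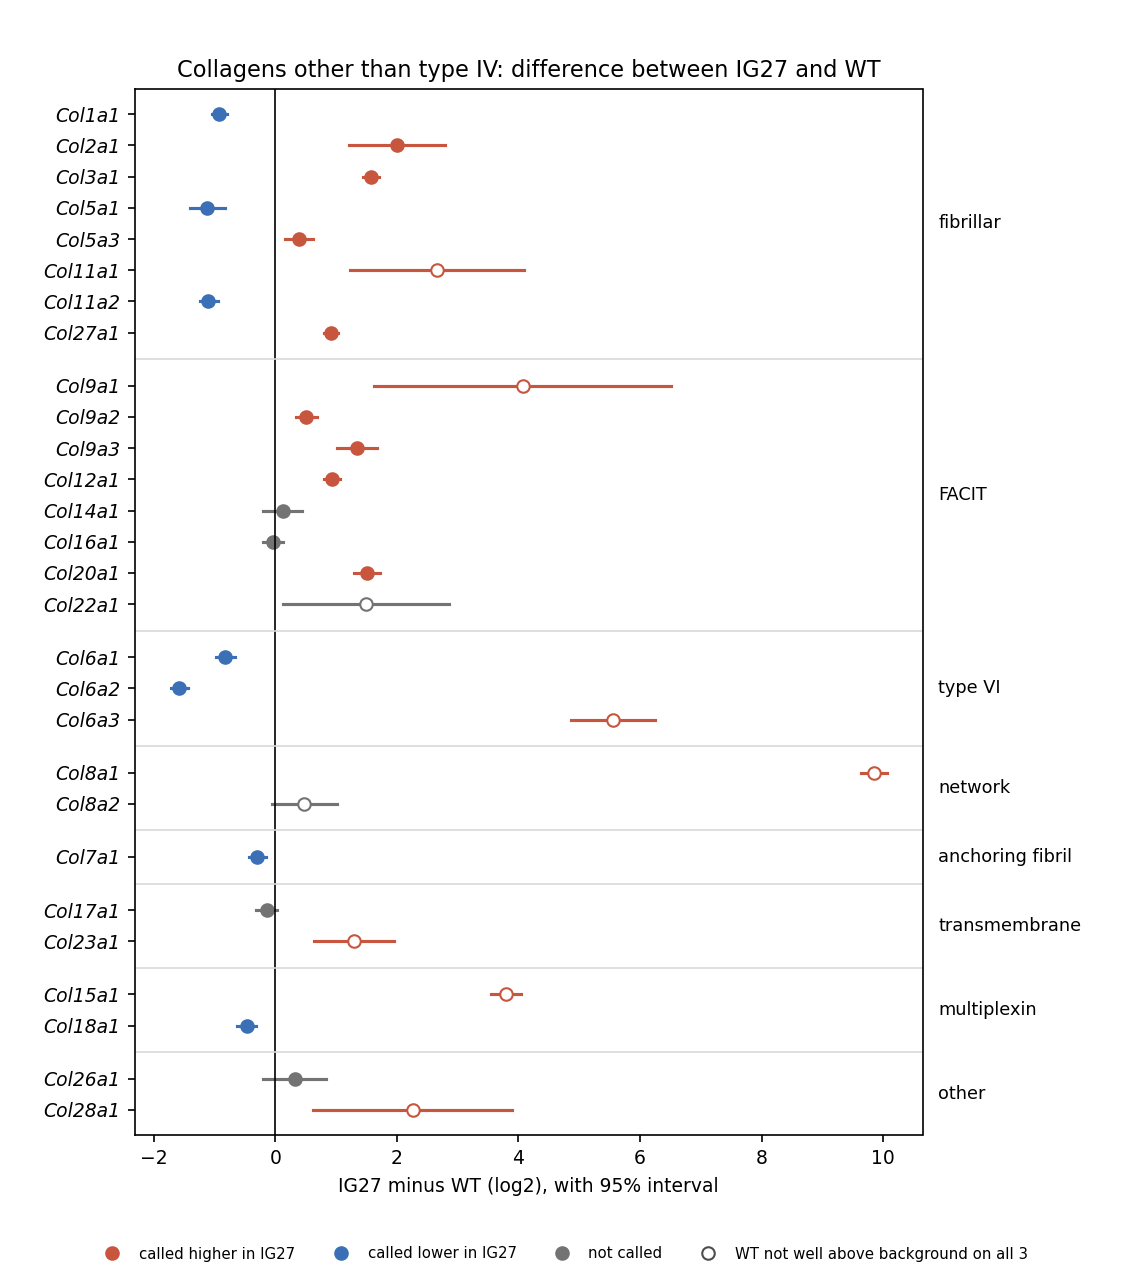
Log2 difference between IG27 and WT cells (x axis) of the 28 tested collagens by class, with 95% intervals from limma as lines. Red marks a call as higher, blue as lower and gray no call, and open points had a WT probe that was not well above background on all 3 arrays. The blue points lie among the fibrillar, type VI, anchoring fibril and multiplexin genes.

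Type VI collagen changed its chains in opposite directions. *Col6a1* read 6.41, 6.44 and 6.45 in WT and 5.50, 5.70 and 5.65 in IG27 cells, 1.76-fold lower (log2 difference -0.82, standard error 0.06, adjusted p = 5.86e-05 from limma). *Col6a2*, which assembles with it, went from 2.20, 2.16 and 2.16 to 0.51, 0.65 and 0.62, 2.99-fold lower (-1.58, standard error 0.06, adjusted p = 1.93e-06 from limma). The large chain *Col6a3*, which completes the classical type VI monomer, was not well above background on any WT array (-7.57, -7.19 and -6.42) and read -1.53, -1.43 and -1.54 in IG27 cells. For such genes a floored fold is given. The IG27 mean was set against the WT mean after raising each WT value, where lower, to the dimmest flagged probe of its array. By this *Col6a3* was higher in IG27 cells by a floored fold of 19.3 (adjusted p = 8.57e-06 from limma on the values before flooring). A floored fold is not a strict lower limit, since that probe is not a detection limit and the normexp alternative below gave smaller differences for several genes. Its other probe was not well above background on any array. The related chains *Col6a5* and *Col6a6* were at background on all arrays, and *Col6a4* was well above background on 2 WT arrays and 0 IG27 arrays and was not tested.

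The largest difference among the 28 tested members was in the network class. *Col8a1*, a chain of the short-chain collagen of vessel walls and corneal endothelium, was not well above background in WT (-6.29, -6.24 and -6.02) and read 3.76, 3.63 and 3.60 in IG27 cells. It was higher in IG27 cells by a floored fold of 691 (adjusted p = 4.84e-08 from limma). *Col8a2*, the other type VIII chain, lay between -5.45 and -4.82 in WT and between -4.96 and -4.32 in IG27 cells, overlapping groups that were not called (0.48, 95% interval -0.06 to 1.01, adjusted p = 0.0964 from limma). *Col10a1*, the collagen of hypertrophic cartilage, was not well above background on any array.

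The 2 multiplexins differed in direction. By its brightest probe *Col15a1* was not well above background in WT (-6.10, -6.35 and -6.39). It read -2.52, -2.58 and -2.36 in IG27 cells, higher by a floored fold of 9.75 (adjusted p = 6.22e-07 from limma). Its dimmer probe gave 2.12 (adjusted p = 0.0659 from limma) and was well above background on 1 WT array. That probe read -4.34, -7.64 and -7.34 in WT and -4.28, -4.29 and -4.40 in IG27 cells. WT replicate 1 was thus level with the IG27 arrays there. *Col18a1*, the source of the fragment endostatin, fell from 3.86, 3.95 and 4.04 to 3.53, 3.48 and 3.42 (log2 difference -0.47, standard error 0.07, adjusted p = 0.00082 from limma). A small fall without overlap was also found for *Col7a1*, which anchors epithelium to stroma, at 0.53, 0.67 and 0.65 in WT and 0.31, 0.36 and 0.27 in IG27 cells (-0.30, adjusted p = 0.00396 from limma).

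Of the 4 transmembrane collagens, 2 were tested. *Col23a1* read -5.27, -6.11 and -5.28 in WT, well above background on 2 of 3 arrays, and -3.93, -4.33 and -4.53 in IG27 cells (log2 difference 1.29, standard error 0.27, adjusted p = 0.00549 from limma), and its dimmer probe gave 1.60 (adjusted p = 0.00151 from limma). *Col17a1*, a hemidesmosome component, was not called (-0.14, 95% interval -0.31 to 0.02, adjusted p = 0.106 from limma). *Col13a1* and *Col25a1*, a neuromuscular junction collagen and a neuronal one, were each well above background in WT replicate 1 alone, at -4.03 and -4.06. Values that stood over 2 log2 units above both other arrays of the group were found on every array, for 136 to 230 of 32994 named probes, and on WT replicate 1 they included probes of *Col9a1*, *Col13a1*, *Col15a1* and *Col25a1*. On WT replicate 2 they included *Col6a5* and *Col28a1*.

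The remaining genes *Col26a1* and *Col28a1* were faint. *Col26a1* was not called (0.32, 95% interval -0.20 to 0.83, adjusted p = 0.225 from limma). *Col28a1* was not well above background in WT (-8.05, -5.64 and -8.12). It read -5.20, -4.94 and -4.88 in IG27 cells, higher by a floored fold of 1.7 (adjusted p = 0.0227 from limma). Its call was lost when any array except WT replicate 2 was left out (adjusted p 0.0612 to 0.072 from limma), and its fitted difference of 2.26 was 3.08 without that array. The other *Col28a1* probe was not well above background on any array.

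Several members are neighbors on their chromosome. *Col6a2* and *Col6a1* lie side by side on chromosome 10 with *Col18a1* 2 protein-coding genes away. All 3 were lower in IG27 cells, as were 40.0% of all genes tested. The median difference of the 682 genes tested on chromosome 10 was 0.08. *Col3a1* and *Col5a2* are adjacent on chromosome 1, as are *Col9a1* and *Col19a1*, and in each pair the first was higher in IG27 cells while the second was not well above background on any array. The 3 tested collagens of chromosome 1, *Col3a1*, *Col6a3* and *Col9a1*, were all higher, as were 30.5% of all genes tested, beside a chromosome median of -0.01. However, *Col6a3* and *Col9a1* passed the filter through IG27 arrays alone, which favors genes that are higher there. On chromosome 9, where the median was -0.64, *Col5a3* and *Col12a1* were higher and *Col7a1* lower.

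Markers of other cells that make collagen were read beside these results. The fibroblast and mural list had 5 of 10 genes well above background on all WT arrays (*Acta2*, *Cnn1*, *Foxc1*, *Pdgfrb* and *Tagln*), while *Lum*, *Tbx18* and *Thy1* were on no array. Its summed level, in multiples of the 75th percentile signal, was 250 to 262 in WT and 48.8 to 49.9 in IG27 cells, with 2 genes called higher and 4 lower. Most of that fall was *Cnn1*, at 166 to 177 in WT and 6.02 to 7.23 in IG27 cells, and the rest of the list summed to 82.2 to 85.6 and 42.2 to 43.4. *Twist1* was higher in IG27 cells by a floored fold of 18.5 (adjusted p = 6.9e-07 from limma). *Foxc1* was also called higher (log2 difference 0.29), while *Pdgfrb* (-1.16), *Tagln* (-1.26) and *Acta2* (-0.51) were called lower, as was *Cnn1*. Over all genes tested 30.5% were called higher and 40.0% lower. The endothelial list had only *Pecam1* well above background on all WT arrays, with *Cdh5*, *Cldn5*, *Tek* and *Tie1* on no array, and its sum was 0.176 to 0.199 in WT and 2.61 to 2.68 in IG27 cells, with 1 gene called higher and 1 lower. That rise was *Kdr*, higher in IG27 cells by a floored fold of 135 (adjusted p = 9.87e-08 from limma). The other endothelial genes summed to 0.172 to 0.195 in WT and 0.15 to 0.173 in IG27 cells. The astrocyte list had 2 genes called higher and 3 lower, and its sum of 95.8 to 106.0 in WT and 55.1 to 63.4 in IG27 cells was mostly *Gfap* (94.5 to 104.0 and 42.5 to 51.8). The other astrocyte genes summed to 1.2 to 1.28 in WT and 11.0 to 12.5 in IG27 cells. Of these *S100b* was 30.5-fold higher and *Slc1a3* was higher by a floored fold of 20.6. In the same remainder *Slc1a2* (log2 difference -1.03) and *Aldh1l1* (-1.72) were called lower and *Aqp4* was not called. The markers given here with values were chosen after their values were seen. Of the microglial genes *Csf1r*, *Itgam* and *P2ry12* were well above background on all WT arrays and *Cx3cr1* and *Ptprc* on none, and of the neuronal genes *Snap25* and *Syn1* were, with *Rbfox3* and *Syt1* on none. The part of these changes in the collagen results was not tested.

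A list of 68 genes that make, modify, bind or degrade collagen was read by role. Of the 53 tested, 19 were called higher in IG27 cells, 23 were called lower and 11 were not called, with a median log2 difference of -0.12, beside 30.5% higher and 40.0% lower of all genes. Collagen chains are hydroxylated on proline and lysine before they fold, and of 12 tested enzymes of this step or their partners 5 were higher and 5 lower. *P3h3*, a lysyl hydroxylase partner of the prolyl 3-hydroxylase family, read -4.86, -5.01 and -5.01 in WT and 0.34, 0.52 and 0.55 in IG27 cells (log2 difference 5.43, adjusted p = 9.87e-08 from limma). *P4ha1*, a catalytic subunit of prolyl 4-hydroxylase, rose from 0.33, 0.41 and 0.27 to 1.89, 2.07 and 2.05 (1.67, adjusted p = 4.1e-06 from limma). *Plod3*, a lysyl hydroxylase, had the largest fall of this role (-0.78, adjusted p = 4.47e-05 from limma).

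In folding and export, 3 of 9 genes were higher and 4 lower, beside 30.5% higher and 40.0% lower of all genes tested, shares that also apply to the next role. *Serpinh1*, which encodes the collagen chaperone Hsp47, read -1.97, -2.29 and -1.87 in WT and 3.19, 3.18 and 3.46 in IG27 cells, a fold change of 40.0 (log2 difference 5.32, standard error 0.14, adjusted p = 5.52e-07 from limma). *Fkbp14*, a prolyl isomerase of the endoplasmic reticulum, fell (-0.83, adjusted p = 8.24e-05 from limma). Of 6 tested genes that cleave propeptides or assist, 2 were higher and 2 lower. *Pcolce2*, an enhancer of C-propeptide cleavage, read -7.02, -3.90 and -3.67 in WT and 0.70, 0.67 and 0.69 in IG27 cells (5.55, adjusted p = 0.00158 from limma, and 4.47 without WT replicate 1 and 6.15 without WT replicate 3). *Adamts2*, the N-propeptidase of fibrillar procollagen, fell (-1.01, adjusted p = 3.38e-05 from limma).

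No cross-linking gene was called higher, but only 4 were tested, and of all genes tested 30.5% were called higher and 40.0% lower. Of 4 tested lysyl oxidase genes 3 were lower and 1 was not called, with *Loxl1* the largest fall, from 2.10, 2.13 and 2.20 to 0.03, 0.25 and 0.25 (log2 difference -1.97, adjusted p = 2.83e-06 from limma). *Lox* itself was not tested, as its probes did not pass the filter. Of 9 tested fibril-binding proteins 3 were higher and 4 lower. *Fmod*, the proteoglycan fibromodulin, rose from -2.25, -2.05 and -2.10 to 1.85, 1.76 and 1.81 (3.94, adjusted p = 1.42e-07 from limma), and *Dpt*, dermatopontin, fell (-1.68, adjusted p = 0.000198 from limma). The IG27 values of *Dpt* were near background, at -5.42, -4.8 and -5.03, and not every flagged IG27 array was well above it.

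All 8 tested collagen receptors were called, 4 in each direction, where 70.5% of all genes tested were called. *Mrc2*, which takes up collagen for degradation, was well above background on 2 of 3 WT arrays at -4.72, -5.42 and -4.99 and read -1.18, -1.18 and -1.01 in IG27 cells (log2 difference 3.92, adjusted p = 5.46e-06 from limma). *Itgb1*, the integrin β1 chain shared by the collagen-binding integrins, fell (-0.84, adjusted p = 1.9e-05 from limma), as did *Ddr1*, a collagen-activated receptor kinase, at 4.46, 4.46 and 4.49 in WT and 4.05, 3.98 and 3.85 in IG27 cells (-0.51, adjusted p = 0.000504 from limma). Of 5 tested genes of breakdown 2 were higher and 1 lower, beside 30.5% higher and 40.0% lower of all genes tested. *Fap*, fibroblast activation protein, was not well above background in WT and was higher in IG27 cells by a floored fold of 2.57 (adjusted p = 2.83e-05 from limma). *Pepd*, the dipeptidase that recycles proline, fell (-0.74, adjusted p = 0.00023 from limma).

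**Figure D3:**
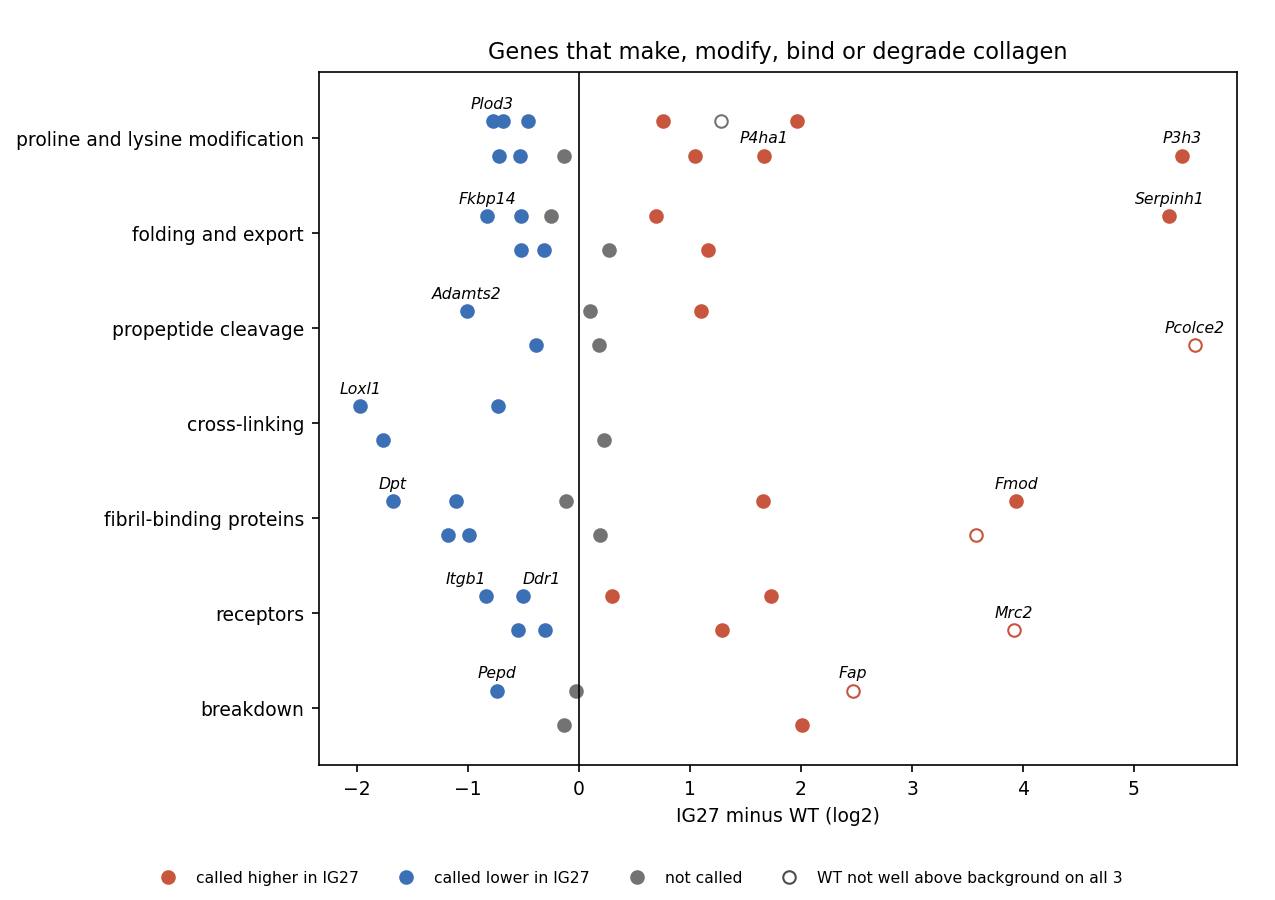
Log2 difference between IG27 and WT cells (x axis) of the 53 tested genes of collagen handling by role (y axis, points shifted up and down within a role for legibility only). Red marks a call as higher, blue as lower and gray no call, open points had a WT probe not well above background on all 3 arrays, and the genes given in the text are named. The points of the cross-linking role lie between -1.97 and 0.22.

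The members differed in how far their size rests on the processing. Over 16 alternatives *Col3a1* stayed between 1.53 and 1.65, *Col6a2* between -1.61 and -1.49 and *Col27a1* between 0.85 and 0.99. Genes near background in WT moved more. The alternative with normexp background correction, which used median in place of processed signals and 5 arrays, so that these steps changed together, brought *Col8a1* from 9.85 to 7.24, *Col6a3* from 5.56 to 2.58, *Col15a1* from 3.80 to 1.74, *Col9a1* to 1.58, *Col11a1* to 0.97, *Col9a3* to 0.72, *Col23a1* to 0.38 and *Col28a1* to 0.59, each still called. In it *P3h3* moved from 5.43 to 3.93, *Pcolce2* from 5.55 to 3.97, *Mrc2* from 3.92 to 2.39, *Fap* from 2.47 to 0.51 and *Dpt* from -1.68 to -0.93. WT replicate 2 shared its slide row with the IG27 arrays, WT replicates 1 and 3 lay in another, and with the row as a block, which leaves WT replicate 2 as the comparison and takes its spread from the other arrays, the difference of *Col9a1* was 5.0, of *Col11a1* 1.26, of *Col28a1* 0.63 and of *Pcolce2* 4.58.

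**Figure D4:**
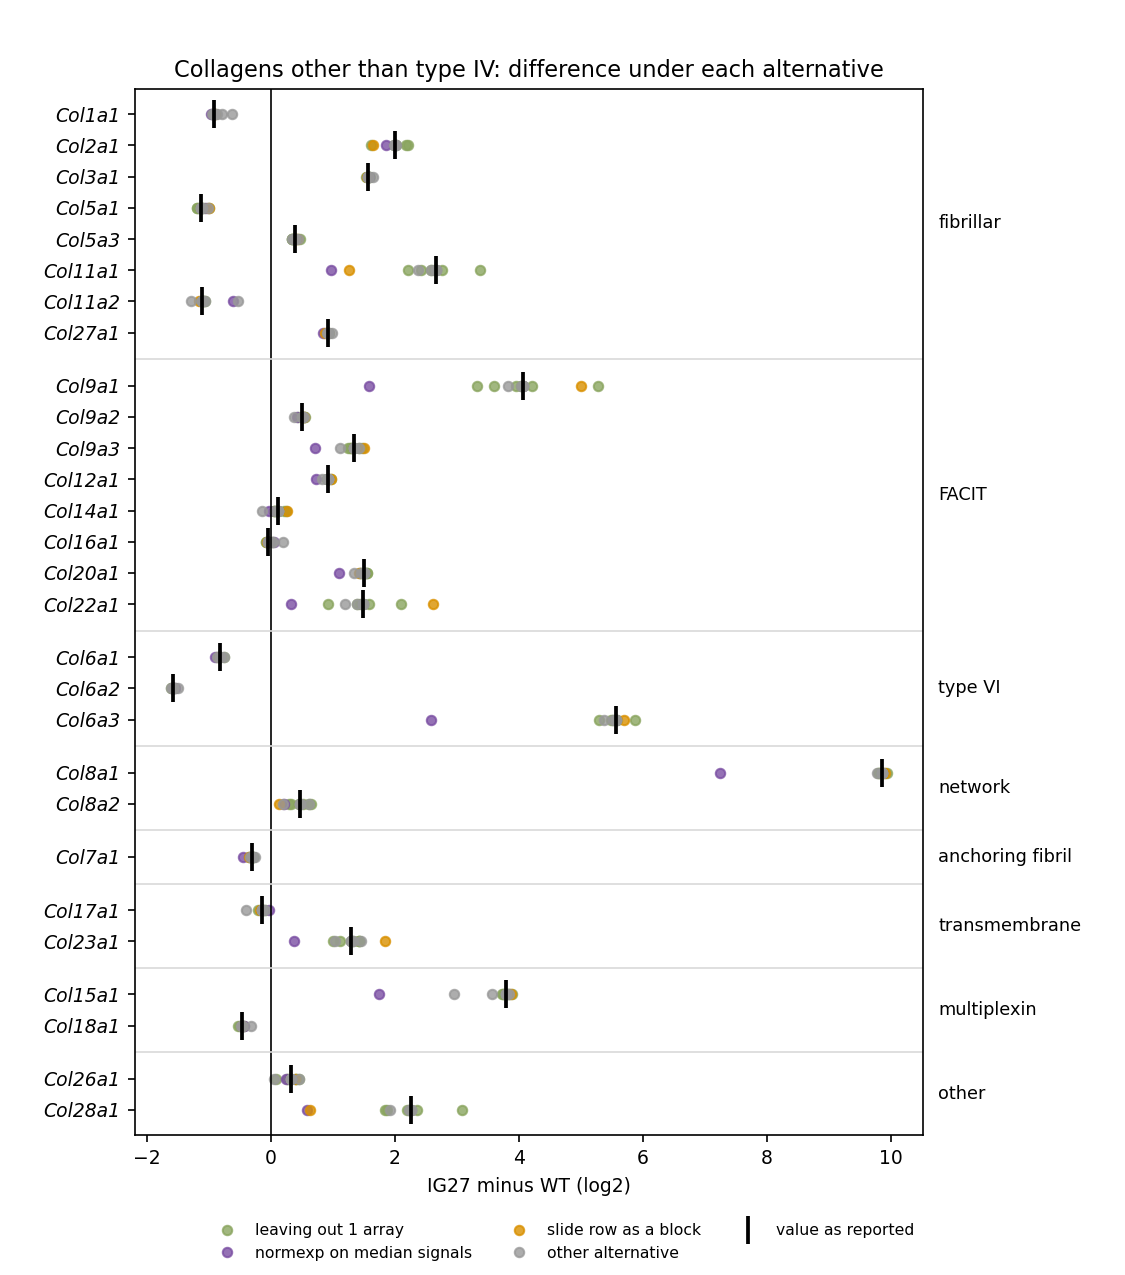
Log2 difference between IG27 and WT cells (x axis) of each tested collagen as reported (black bar) and under each alternative (points, colored by kind). *Col3a1*, *Col6a2* and *Col27a1* keep their points close to the bar, and *Col8a1*, *Col6a3* and *Col15a1* have the normexp point far to the left of it.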

How the data were processed

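RNA of 3 WT and 3 IG27 samples was labeled with Cy3 and read on SurePrint G3 mouse arrays, all on 1 slide. The authors scanned the slide with Agilent Feature Extraction (version 9.1 per the submitters' processing notes, 10.7.3.1 per the file headers), and the deposited processed signal is an intensity on a linear scale. A deposited table of values per probe matched this output. Its columns for WT replicates 2 and 3 equal each other's scanner values in all 56305 single-spot probes (relative tolerance 1e-04), so the scanner output was used for 5 arrays. The scanner output of IG27 replicate 2 holds 285 spots, and its 255 single-spot probes equal its own table column, which gave this array.

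Control spots and outlier-flagged spots (on complete arrays 107 to 210) were dropped, and the log2 of the signal minus the 75th percentile of the array was taken. Probes were named by accession through a RefSeq table of GRCm38.p6 (32994 of 35886 probes with a RefSeq accession matched), and the brightest tested probe stood for a gene. Genes were tested with limma 3.58.1 under R 4.3.3 (two-sided test by lmFit then eBayes, Benjamini-Hochberg adjustment, threshold 0.05), a moderated test as in the study's methods. The steps were tested on simulated data. The number of arrays limits the precision. Probe sequences were not used here, so which exons a probe reads and its cross-reaction with related chains were not checked. Further probes of a tested gene that did not pass the filter are mentioned for some members only. Array row was taken from the position in the file names.

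Every collagen is named. Of the pathway list the largest called rise and fall of each role are named, with *Serpinh1*, *Lox*, *P4ha1* and *Ddr1*. Of the oligodendrocyte lineage markers, 1 gene and the list's counts and sum are not reported here. The members, lists and naming rule were chosen with earlier results of these data known. Alternatives were quantile normalization, normexp (offset 50) on median signals, the filter on dim probes dropped or made stricter, 5 arrays only, flagged spots retained, averaging over a gene's probes, trended eBayes, blocks for replicate number or for slide row, leaving out each array, and the methods' unadjusted threshold.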

Additional observations from a re-analysis of the deposited data

How the results depend on the processing

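Of the 22 called collagens, 15 were tested in all 16 alternatives and kept direction and call in each. The other 7 were not tested under the stricter filter, and of these 6 kept the call in the remaining 15 alternatives while *Col28a1* did not. The slide row as a block, 1 of the alternatives, rests on WT replicate 2 alone. The fit on 5 arrays only and the fit without IG27 replicate 2 are the same fit, although each was counted as an alternative. The count of collagens called higher was 8 instead of 15 when only genes well above background on every complete array were tested, which removes 7 of them that passed through IG27 arrays alone, and was otherwise 14 to 16. The count called lower was 7 or 8. Leaving out each array in turn gave 14 to 16 higher and 7 to 8 lower. *Col14a1*, which was not called, turned to -0.14 with quantile normalization and to -0.02 with normexp. *Col16a1*, also not called, turned to 0.03 with quantile normalization, 0.05 with normexp, 0.02 with 5 arrays and 0.20 with the mean of its probes (adjusted p = 0.0234 from limma), and ranged from -0.08 to 0.02 over the arrays left out. *Col8a2*, *Col17a1* and *Col22a1* gained a call in some alternatives. Samples sharing a replicate number showed little shared deviation (correlations of 0.0118, 0.0395 and 0.0763, against -0.094 to 0.059 for unlike numbers). With 3 arrays a group this cannot settle whether the numbers pair the samples. WT replicates 2 and 3 are also numbered differently in the deposited table and the scanner output. With the replicate block 15 collagens were higher and 7 lower, of all genes 4476 were higher and 5833 lower, and 20 and 23 pathway genes. With 3 arrays a group and WT signals near background, the size of the rises of *Col9a1*, *Col11a1* and *Col28a1* is loosely set.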
